A study of Homo sapiens with 12 samples.

Results

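Of 12 RNA-seq libraries made from EndoC-βH1 cells, 4 carry the replicate number 1, and these were compared with the 8 that carry the numbers 2 and 3. Libraries were sorted by the number in each sample's title and by no measured value. The genes and gene lists followed below were chosen with earlier results of these data known. Their counts and p-values are therefore not an independent test. EndoC-βH1 is an established human beta-cell line, derived from fetal pancreas, that makes and releases insulin. All cultures were transfected with lipid reagent and then treated for 24 hours in medium with 5.5 mM glucose. The groups were negative control siRNA (AllStars, also labelled scramble) with DMSO, siRNAs against the long noncoding RNA TUNAR with DMSO, negative siRNA with 5 µM 1-AKP, an inhibitor of the kinase GSK3, and TUNAR siRNAs with 1-AKP. Each of the 4 groups held 1 library of each number, so the replicate 1 libraries were matched to the others within their group. Replicates 1 and 2 were at passage 74 and replicate 3 at passage 75. What else a number marks is not given in the sources used here: a day of culture, a thaw, a transfection or a library batch cannot be told apart as sources of what follows. All libraries come from 1 cell line, and nothing says that the 4 cultures of a number were started separately, so p-values measure the spread between these libraries only.

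The libraries were of nearly equal depth. Totals ran from 15653786 to 15870259 expected counts in replicate 1 and from 15852991 to 15986834 in replicates 2 and 3, and the 10 most abundant genes took 7.20% to 7.47% and 7.35% to 7.97% of them. TUNAR itself, the siRNA target, was lower with TUNAR siRNAs in every number and treatment: with DMSO it stood at 14.4, 19.9 and 17.7 CPM (counts scaled to the library's total) in replicates 1, 2 and 3 with negative siRNA and at 3.83, 7.20 and 8.09 with TUNAR siRNAs, and with 1-AKP at 27.9, 31.0 and 30.8 against 6.95, 10.4 and 13.6. In each of these 4 groups replicate 1 held the least TUNAR (log2 difference -0.44, edgeR adjusted p = 0.0072).

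A dividing cell copies its DNA in S phase with the MCM helicase and the DNA polymerases, and then builds up in G2 phase a set of transcripts for mitosis: cyclin B and its kinase CDK1, the motors and scaffolds of the spindle, the kinetochore proteins that hold chromosomes to it, and the factors that end mitosis and split the cell. Beta cells of the adult islet divide rarely, while EndoC-βH1 cells divide in culture. A beta cell is otherwise known by insulin, by the transcription factors that keep the insulin gene active, and by the genes that couple glucose breakdown to the closing of potassium channels and to granule release. Somatostatin belongs in the islet to the delta cell.

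The replicate 1 libraries differed from the others in a large share of the transcriptome, mostly by small amounts. Of 15990 genes tested, 6153 (38.5%) passed an adjusted p of 0.05 in edgeR's quasi-likelihood test with the group as a block: 2916 (18.2%) were higher in replicate 1 and 3237 (20.2%) lower. The median size of these differences was 0.217 on the log2 scale, and the median over all genes tested was -0.0018. Differences over 1.5-fold were called for 347 higher and 223 lower genes, over 2-fold for 45 and 37, and over 3-fold for 2 and 9. The share called grew with abundance, from 9.59% of the 907 genes with a mean under 1 CPM to 57.1% of the 2465 genes at 100 CPM or more, where the median size of a called difference was 0.142. In CPM, replicate 1 was the highest of the 3 libraries in all 4 groups for 2594 genes (16.2%) and the lowest in all 4 for 2740 (17.1%). Among the called genes 2343 of the 2916 higher and 2541 of the 3237 lower ones had this order, and for 1085 and 1016 the 4 replicate 1 libraries lay wholly outside the range of the other 8. After the variance between groups (34.3% with 3 degrees of freedom), the contrast of replicate 1 with the others took 21.5% of the variance of log2 CPM with 1 degree of freedom. The rest within groups was the largest part, 44.1% with 7 degrees of freedom.

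**Figure D1:**
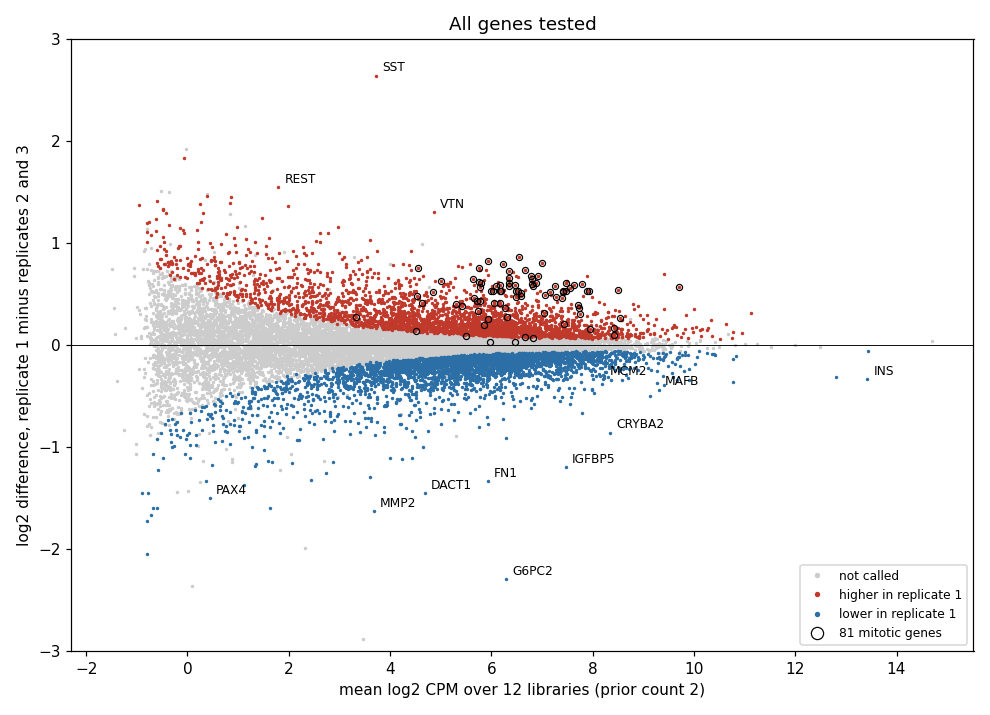
Log2 difference between replicate 1 and replicates 2 and 3 (vertical axis) against the mean log2 CPM over the 12 libraries (horizontal axis), 1 point per gene tested; colours mark genes called higher or lower at an adjusted p of 0.05, and open circles mark 81 mitotic genes. SST stands alone at the top at 2.64, G6PC2 lies at -2.30, and the mitotic genes lie above 0 between 0.026 and 0.86; 3 genes beyond 3 on the vertical axis are not drawn, all 3 on the lower side.

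Genes of mitosis were higher in replicate 1. Of 81 genes in 5 lists, 76 were higher in replicate 1, none was called lower, and the median log2 difference was 0.52, beside 18.2% higher and a median near 0 over all genes tested. Summed over the 81 genes, replicate 1 held 11850 to 12440 CPM, replicate 2 8513 to 8648 and replicate 3 8977 to 9299. The replicate 1 sums were thus above those of every other library, and 71 of the 81 genes showed that separation singly. In bulk RNA a larger share of cells in G2 or mitosis and more of these transcripts per cell cannot be told apart.

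CCNB1, the mitotic cyclin B1 that activates CDK1 (Entrez Gene 891), stood with negative siRNA and DMSO at 155 CPM in replicate 1 and at 92.7 and 98.0 in replicates 2 and 3. With TUNAR siRNAs and DMSO the values were 154, 91.6 and 102, and with negative siRNA and 1-AKP 162, 98.8 and 113. With both TUNAR siRNAs and 1-AKP they were 172, 104 and 108. The 4 replicate 1 values lay above all 8 others, whatever the siRNA or treatment. The fitted log2 difference was 0.67 ± 0.034 (SE), a 1.59-fold higher level (adjusted p = 9.7e-15).

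Of the 19 mitotic cyclins and kinases, 16 were higher. CCNB2, the second B-type cyclin, ranged from 101 to 109 CPM in replicate 1 and from 54.7 to 64.2 in the others (log2 0.79 ± 0.034). NEK2, a centrosome kinase, ranged from 76.0 to 92.3 against 43.0 to 53.8 (0.82 ± 0.038), and AURKA, the kinase that matures the spindle poles, averaged 147 CPM against 91.5 and 96.7 in replicates 2 and 3 (0.64 ± 0.030). CDC25B, a phosphatase that removes the inhibitory phosphate from CDK1, went from a range of 203 to 215 CPM to one of 292 to 305 (0.53 ± 0.024). All 4 groups showed each of these differences with no overlap. The 3 members not called were PKMYT1 and WEE1, the kinases that place that inhibitory phosphate, and MYBL2, at log2 0.09, 0.07 and 0.03 (named after their values were seen, because they are the exceptions).

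Kinetochore and spindle checkpoint genes were higher in 18 of 20 cases, with a median of 0.47. BIRC5, the survivin subunit of the chromosomal passenger complex, had the lowest p of any list member: 170 to 192 CPM in replicate 1 and 97.9 to 113 in the others, a log2 difference of 0.80 ± 0.028 (adjusted p = 4.4e-19). CDCA8, another subunit of that complex, differed by 0.59, MAD2L1, which holds back anaphase until chromosomes are attached, by 0.57, and CENPF, a large outer kinetochore protein, by 0.54. The exceptions, named for that reason after the fact, were SPC25 at 0.03 and MIS18A at 0.14.

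All 20 spindle and kinesin genes were higher, with a median of 0.53. HMMR, a spindle assembly factor, showed the largest difference of the 81 mitotic genes, with 122 to 139 CPM in replicate 1 and 65.6 to 82.4 in the others (0.86 ± 0.032). KIF2C, a kinesin that takes microtubules apart at the centromere, differed by 0.73, PRC1, which bundles microtubules in the spindle midzone, by 0.60, and the chromokinesin KIF4A by 0.59. All 10 genes of mitotic exit and cytokinesis were higher as well, with a median of 0.55. They include UBE2C, the ubiquitin-conjugating enzyme of the anaphase-promoting complex, at 0.73, CEP55, which acts in the last step of abscission, at 0.65, and ECT2 and CIT, which act on the cleavage furrow, at 0.59 and 0.60.

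All 12 genes of mitotic chromosome structure were called higher, with the smallest median of the 5 lists, 0.41. TOP2A, the topoisomerase that untangles sister chromosomes, averaged 1066 CPM in replicate 1 and 691 and 743 in replicates 2 and 3 (0.57 ± 0.029). CKS1B, a small CDK-binding protein, differed by 0.64, and the condensin subunits NCAPH and NCAPD2 by 0.58 and 0.36. MKI67, the common proliferation marker (named after its values were seen), differed by less than most, 0.16 ± 0.032 (adjusted p = 4.2e-04). Leaving out any 1 library, or taking passage 74 alone, moved the median of none of the 5 lists to the other side of 0.

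**Figure D2:**
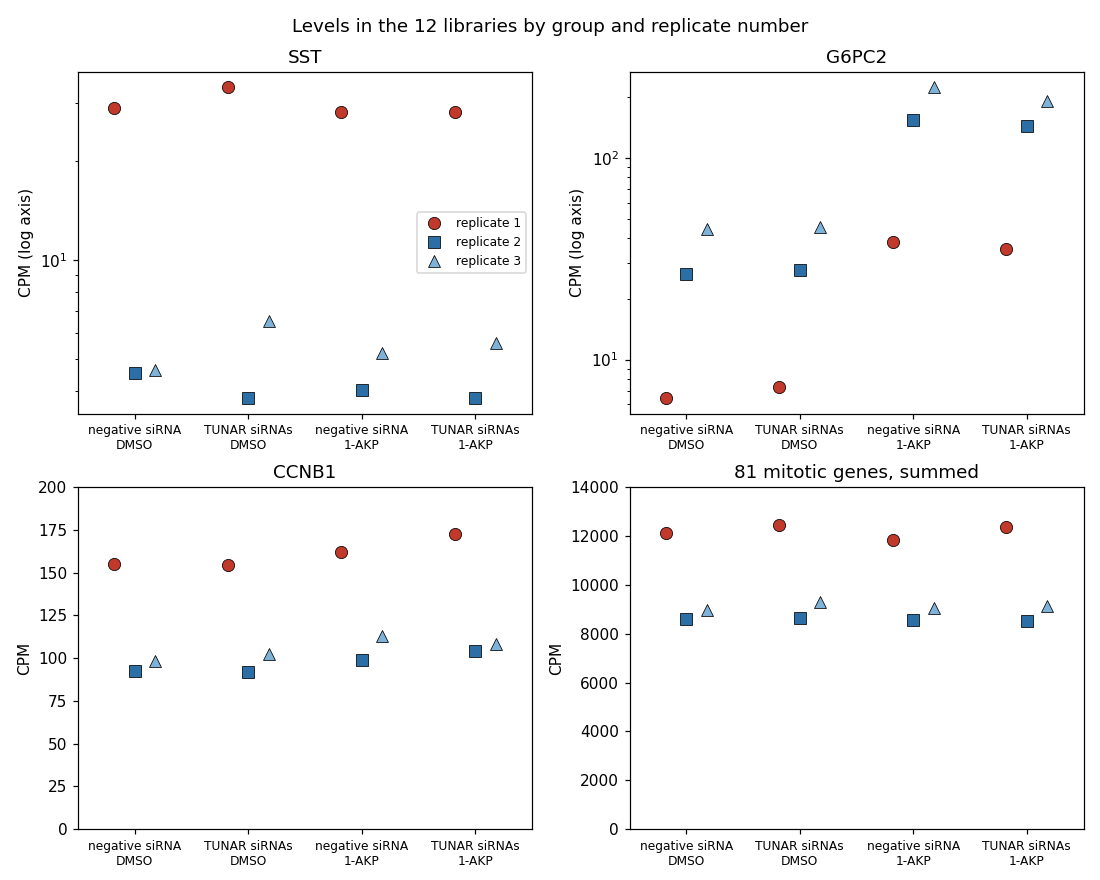
CPM in each of the 12 libraries, by siRNA and treatment group (horizontal axis) and replicate number (colour and shape), for SST and G6PC2 on log axes and for CCNB1 and the sum of the 81 mitotic genes on linear axes from 0; each point is 1 library. Replicate 1 is above both others in all 4 groups for SST, CCNB1 and the sum, and below both in all 4 for G6PC2, whose level is also higher in the 1-AKP groups.

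The promoters of mitotic genes are known for 2 short elements. The first is the cell cycle genes homology region, TTTGAA or TTTAAA, through which the DREAM complex can hold such genes down. The second is the CCAAT box, which binds NF-Y. Promoter sequences from RefSeq (GRCh38.p14, 250 bases before to 50 after the gene's start) were present for 68 of the 81 mitotic genes and for 12444 of the 15990 genes tested. TTTGAA, read on either strand, occurred in 47 of the 68 mitotic promoters (69.1%) and in 9.9% of all 12444. CCAAT occurred in 72.1% of them and in 36.3% of all, and TTTAAA in 23.5% and 7.92%. In the promoters of all genes called higher in replicate 1, TTTGAA occurred in 14.3%, and in those of genes called lower in 6.7%. The genes called higher include 76 of the 81 mitotic genes, so the share of 14.3% is not separate from that of the mitotic promoters. DNA replication genes, which are active in S phase, had TTTGAA in 1 of 30 promoters (3.33%) and CCAAT in 16 (53.3%). Shown here are the promoters of 3 mitotic genes with large differences, on the strand of the gene, to display where the letters lie. Capitals mark the homology region in either spelling, the CCAAT box and a further motif taken up with SST, the cAMP response element TGACGTCA, each on either strand.
CCNB1, chr5:69166900-69167199, + strand: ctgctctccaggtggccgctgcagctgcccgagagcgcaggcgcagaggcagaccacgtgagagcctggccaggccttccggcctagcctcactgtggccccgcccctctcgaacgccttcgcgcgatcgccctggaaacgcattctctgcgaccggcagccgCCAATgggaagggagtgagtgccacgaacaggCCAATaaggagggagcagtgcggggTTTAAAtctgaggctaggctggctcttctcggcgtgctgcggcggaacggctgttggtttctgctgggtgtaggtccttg
CCNB2, chr15:59104896-59105195, + strand: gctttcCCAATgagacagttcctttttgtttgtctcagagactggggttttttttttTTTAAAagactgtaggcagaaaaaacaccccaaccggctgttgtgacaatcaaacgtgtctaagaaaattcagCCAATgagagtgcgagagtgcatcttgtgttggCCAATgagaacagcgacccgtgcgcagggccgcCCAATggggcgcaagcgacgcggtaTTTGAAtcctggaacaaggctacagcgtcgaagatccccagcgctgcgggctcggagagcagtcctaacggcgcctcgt
HMMR, chr5:163460382-163460681, + strand: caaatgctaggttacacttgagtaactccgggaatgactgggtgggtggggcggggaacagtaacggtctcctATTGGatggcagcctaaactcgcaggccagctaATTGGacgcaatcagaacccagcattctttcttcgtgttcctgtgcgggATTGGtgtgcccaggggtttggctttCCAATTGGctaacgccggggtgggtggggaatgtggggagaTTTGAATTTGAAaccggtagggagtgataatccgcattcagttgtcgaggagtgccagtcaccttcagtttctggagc

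The first base of TTTAAA lies 30 bases before the CCNB1 start, that of TTTGAA 29 before the CCNB2 start, and 2 adjoining copies of TTTGAA lie 28 and 22 before the HMMR start. CCAAT lies upstream of each, at 87 and 55 bases before the start in CCNB1 and at 120, 87 and 54 in CCNB2, which has a further copy at 244 and a TTTAAA at 193. In HMMR 1 CCAAT at 69 overlaps a copy on the other strand, and 3 more lie on that strand. The window of CDC25B, which was also higher, has none of the 4 motifs. A match describes letters in the sequence and not a bound site.

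DNA replication genes were more often lower than higher. Of 34 tested, 5 were higher (14.7%) and 17 lower (50.0%), beside 18.2% higher and 20.2% lower over all genes tested, with a median of -0.11. MCM2, a subunit of the replicative helicase, ranged from 243 to 258 CPM in replicate 1 and from 308 to 332 in the others (log2 -0.34 ± 0.026, adjusted p = 9.1e-12). The helicase subunits MCM6 and MCM5 differed by -0.26 and -0.27 and POLA1, the catalytic subunit of DNA polymerase alpha, by -0.28, all 3 with no overlap between the 4 libraries and the other 8. The summed level of the 34 genes was 4758 to 5090 CPM in replicate 1, just under the 5091 to 5708 of the others.

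G1 cyclins and CDK inhibitors were mixed, with 4 of 18 higher, 7 lower and a median of -0.02. Among them CDKN1A, the CDK inhibitor p21, was at 17.0 to 22.6 CPM in replicate 1 and at 8.07 to 12.3 in the others (0.92 ± 0.062, adjusted p = 5.9e-13). The other 3 that were higher were CDKN2D (0.42), the pocket protein RBL1 (0.30) and CDKN2C (0.21), while 3 further genes that restrain the cycle were among the 7 lower. Of the p53 targets, a list that also holds CDKN1A, 4 of 11 were higher and 1 lower, with a median of 0.08. The share called in either direction was 45.5%, beside 38.5% of all genes tested. The antiproliferative genes TP53INP1 and BTG2 differed by 0.54 and 0.39 and RRM2B, a ribonucleotide reductase subunit, by 0.18.

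SST, the gene of somatostatin (Entrez Gene 6750), a hormone that restrains insulin and glucagon release, showed the largest difference among the called genes that were higher. With negative siRNA and DMSO it stood at 29.0 CPM in replicate 1 and at 4.54 and 4.63 in replicates 2 and 3. With TUNAR siRNAs and DMSO it stood at 33.5, 3.82 and 6.52. In 1-AKP the values were 28.3, 4.04 and 5.21 with negative siRNA and 28.1, 3.80 and 5.58 with TUNAR siRNAs. Replicate 1 was high in every group, and the highest of the other 8 libraries was far under its lowest. The log2 difference was 2.64 ± 0.088 (6.23-fold higher on average, adjusted p = 8.4e-16), and within the 4 groups it ran from 2.58 to 2.71. Per length, SST averaged 46.7 FPKM in replicate 1 and 7.45 in the others. In replicate 1 that is close to the level of IAPP, the amyloid peptide released with insulin (48.8 FPKM), and far under that of INS (21210 FPKM).

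Other markers of delta cells showed no common direction. Of the 8 in the list 5 were tested: SST and the leptin receptor LEPR (0.23) were higher, the calcium-sensing receptor CASR was lower (-0.23), and RBP4 and PRG4 were not called. LEPR lost its call in 7 of 29 alternative analyses, among them DESeq2 (adjusted p = 0.0739), and differed by 0.14 without replicate 1 of 1-AKP with TUNAR siRNAs (0.197). HHEX, the delta-cell transcription factor, GHSR and BCHE were under 1 CPM in every library. The summed CPM of the list was 302 to 342 in replicate 1 and 321 to 358 in the others. Among the receptors for somatostatin, SSTR2 was lower with no overlap (110 to 114 CPM against 139 to 149, log2 -0.36), SSTR3 was lower (-0.23) and SSTR5 was higher (0.87, at 3.28 to 9.24 CPM against 1.71 to 6.91). The SST promoter is shown because it carries, in the same window, the cAMP response element for which this promoter is known; capitals mark the same 4 motifs.
SST, chr3:187670345-187670644, - strand: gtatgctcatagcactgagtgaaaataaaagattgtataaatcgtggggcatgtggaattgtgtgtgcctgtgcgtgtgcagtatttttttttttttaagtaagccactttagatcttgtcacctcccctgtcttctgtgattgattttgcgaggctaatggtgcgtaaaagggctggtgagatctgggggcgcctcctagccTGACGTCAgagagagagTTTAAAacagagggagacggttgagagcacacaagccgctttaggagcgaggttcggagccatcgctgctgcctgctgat

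TGACGTCA begins 47 bases before the SST start, and the letters TTTAAA begin 30 before it. Here too a match is not a bound site, and whether TTTAAA acts as a homology region in SST was not tested. The response element occurred in 3.08% of all 12444 promoters, in 3.31% of those of genes higher in replicate 1 and in 3.27% of those of genes lower. Immediate early genes and CREB targets were higher in 5 of 18 cases (27.8%) and lower in 1, with a median of 0.15. The share called in either direction, 33.3%, was under the 38.5% of all genes tested, so the total called does not set the list apart. By direction, 27.8% were higher, beside 18.2% of all genes tested, and 5.56% lower, beside 20.2%. ATF3, a stress-induced transcription factor, differed by 1.24, the growth-induced factors FOS and EGR1 by 0.91 and 0.79, and NR4A3, an orphan nuclear receptor, by -0.78. Without replicate 1 of TUNAR siRNAs with DMSO, NR4A3 differed by -0.60 and was not called (adjusted p = 0.0645). EGR1 was at 25.5 to 29.0 CPM in replicate 1 and at 12.5 to 18.8 in the others.

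G6PC2, the islet glucose-6-phosphatase (Entrez Gene 57818), which removes the phosphate from glucose-6-phosphate, was lower in replicate 1. In DMSO it stood at 6.43 CPM in replicate 1 and at 26.5 and 44.1 in replicates 2 and 3 with negative siRNA, and at 7.35, 27.7 and 45.3 with TUNAR siRNAs. In 1-AKP it was at 38.1, 153 and 223 with negative siRNA and at 35.4, 144 and 192 with TUNAR siRNAs. The 12 values overlap because the gene was several-fold higher in 1-AKP, but in each group replicate 1 held the least, with log2 differences between -2.39 and -2.22. The fitted difference was -2.30 ± 0.24 (4.93-fold lower, adjusted p = 1.8e-04). It missed the threshold without the group block (adjusted p = 0.0754) and in DMSO alone (adjusted p = 0.0533). G6PC2 also differed between the other 2 numbers, by -0.55 for replicate 2 minus replicate 3 (adjusted p = 6.7e-11).

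The other genes of glucose entry moved little. Of 12 tested, 1 was higher (8.33%) and 6 lower (50.0%), beside 18.2% and 20.2% of all genes tested, with a median of -0.09. SLC2A1, a glucose transporter, differed by -0.22. Glycolysis genes were lower in 9 of 17 cases (52.9%, beside 20.2% of all genes tested) and higher in none, again by small amounts. ENO1 differed by -0.31, the lactate carrier SLC16A1 by -0.28, GPI by -0.18 and GAPDH by -0.14.

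Insulin was lower in replicate 1. INS ranged from 9207 to 9454 CPM there and from 10630 to 12850 in the others, with no overlap (log2 -0.34 ± 0.036, adjusted p = 2.1e-06). It also differed between replicates 2 and 3 (-0.11, adjusted p = 0.0047). IAPP went the other way, at 136, 104, 84.5 and 60.9 CPM in the replicate 1 libraries of the 4 groups and at 106 down to 42.3 in the others; its level fell in order of group too, and replicate 1 was the highest in each (0.48 ± 0.041, adjusted p = 6.4e-10). Of 21 hormone and granule genes (median -0.11), 6 were higher (28.6%, beside 18.2% of all genes tested) and 10 lower (47.6%, beside 20.2%). The higher ones include PAM, the enzyme that amidates peptide hormones, at 0.34 and the granin CHGB at 0.25.

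Beta-cell transcription factors were lower in 13 of 20 cases (65.0%) and higher in none, beside 18.2% higher and 20.2% lower over all genes tested, with a median of -0.15. RFX6, needed for islet cell formation, was at 78.2 to 91.4 CPM in replicate 1 and at 105 to 128 in the others (-0.41 ± 0.037, adjusted p = 3.8e-10). NEUROD1, which helps to activate the insulin gene, differed by -0.27 and INSM1 by -0.24, and the 4 replicate 1 libraries lay under all 8 others for all 3 genes. MAFA, the factor that marks mature beta cells and is named here after its values were seen, had the largest difference of the list, from a mean of 85.9 CPM in replicates 2 and 3 to 52.1 in replicate 1 (-0.73 ± 0.064, adjusted p = 2.1e-06).

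Factors of endocrine progenitors were lower in 4 of 7 cases (57.1%, beside 20.2% of all genes tested) and higher in 1 (14.3%, beside 18.2%). PAX4, which directs progenitors to the beta and delta fates, was at 0.190 to 0.880 CPM in replicate 1 and at 0.954 to 2.51 in the others (-1.50 ± 0.24). ONECUT2 and SOX4 differed by -0.43 and -0.31, and FEV by -0.78. PAX4 and FEV stood under 3 CPM in every library, so their values rest on few counts.

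Genes of excitability and release were split. Of 16 channel genes, 4 were higher and 7 lower: CACNA1A, a P/Q-type calcium channel, differed by -0.62, and KCNJ11 and ABCC8, the pore and the sulfonylurea receptor of the ATP-sensitive potassium channel, by -0.29 and -0.22. CACNA1H, a T-type calcium channel, differed by -0.29. Of 21 exocytosis genes, 7 were higher and 7 lower. The complexin CPLX1 differed by -0.51, the calcium sensor SYT7 by -0.34, the membrane fusion protein STX1A by -0.21, and SYT4 by 0.42. Receptors were higher in 2 of 13 cases and lower in 4, with the adrenergic receptor ADRA2A at -0.28. The shares called in either direction were 68.8% of channel genes, 66.7% of exocytosis genes and 46.2% of receptors, beside 38.5% of all genes tested.

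The 15 largest differences upward, by the rule for named genes, were led after SST by low-abundance genes. REST, a repressor of neuronal genes in other cell types, stood at 7.99, 6.98, 5.25 and 3.67 CPM in the 4 replicate 1 libraries and at 1.20 to 2.63 in the others (1.55 ± 0.13, adjusted p = 7.1e-11). REG4, a secreted lectin of the gut, was at 5.34 to 7.62 CPM against 1.71 to 3.61 (1.36 ± 0.13). VTN, the adhesive plasma protein vitronectin, was more abundant, at 42.5 to 51.5 CPM against 21.3 to 27.1 in replicate 2 and 11.8 to 16.8 in replicate 3. All 3 numbers were thus apart for VTN, whose difference was 1.30 ± 0.21 (adjusted p = 0.0018) and missed the threshold within each treatment or siRNA alone (adjusted p = 0.0579 to 0.0902).

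Among the rest of these 15, ATF3 (1.24) is described above. The adaptor gene GRAP (1.15) has a near-identical neighbour copy, MT2A (1.10), a metal-binding metallothionein, belongs to a family of close copies, and NOTCH2NLA (1.04) is 1 of several near-identical copies of part of NOTCH2, so the counts of these 3 are uncertain. GCNT3, which branches mucin sugars, differed by 1.10, IL1R2, the decoy receptor for interleukin-1, by 1.05, FSTL1, a secreted glycoprotein, by 1.02, ANXA13, an annexin, by 1.02, and GAS2L1, a cytoskeletal linker, by 1.01. APOBEC3B, a DNA cytidine deaminase, differed by 1.01 and SERPIND1, heparin cofactor II, by 0.97. In 14 of the 15, SST included, the 4 replicate 1 libraries lay above all 8 others; in ANXA13 they overlapped across groups.

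The 15 largest differences downward, by the same rule, included 1 locus without a descriptive name. Of the 9 genes called over 3-fold lower, only G6PC2, MMP2 and CHRNA4 met that rule. The others fell short of its level or its order within groups and are not named. After G6PC2 came MMP2, a gelatinase that digests matrix, at 4.56 to 6.03 CPM in replicate 1 and 11.0 to 20.7 in the others (-1.63 ± 0.085, adjusted p = 2.3e-15). CHRNA4, a nicotinic receptor subunit, followed at 1.01 to 1.42 CPM against 2.60 to 4.89 (-1.60 ± 0.17). DACT1, an intracellular modulator of Wnt signalling, was at 8.99 and 6.73 CPM in DMSO and 16.4 and 15.2 in 1-AKP in replicate 1, against 19.9 to 24.1 and 39.9 to 47.4 (-1.46 ± 0.075). IGFBP5, a secreted binding protein for insulin-like growth factors, was at 100, 147, 59.2 and 71.2 CPM in replicate 1 by group, against 243 and 247, 343 and 316, 126 and 131, and 179 and 154 (-1.20 ± 0.040, adjusted p = 1.2e-15). Replicate 1 was lowest in all 4 groups for each of these genes, which the rule requires.

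FN1, the matrix protein fibronectin, which also coated the plates, differed by -1.34 ± 0.21 (adjusted p = 0.0017). In DMSO its replicate 1 values were 19.0 and 28.2 CPM against 31.8 to 45.1, and in 1-AKP 26.2 and 41.9 against 82.3 to 141. The difference was wider in 1-AKP by -0.98 ± 0.25 on the log2 scale, which did not pass the test over all genes (adjusted p = 0.81), and the FN1 call was lost without the group block (adjusted p = 0.0607), at passage 74 alone (0.0526) and within either siRNA (0.0647 and 0.0751). SULF2, which trims sulfates from heparan sulfate, differed by -1.30 ± 0.086 and lost its call without the group block (adjusted p = 0.209). The remaining ones were GUCY1A1, a subunit of the nitric oxide receptor cyclase (-1.37), SLC6A2, the noradrenaline transporter (-1.33), the kinase WNK2 (-1.19), ESPNL, a relative of the actin bundler espin (-1.17), the cold channel TRPM8 (-1.16), NECAB2, a neuronal calcium-binding protein (-1.15), and CPNE5, a copine (-1.15). All 7 lay under 12 CPM in every library.

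**Figure D3:**
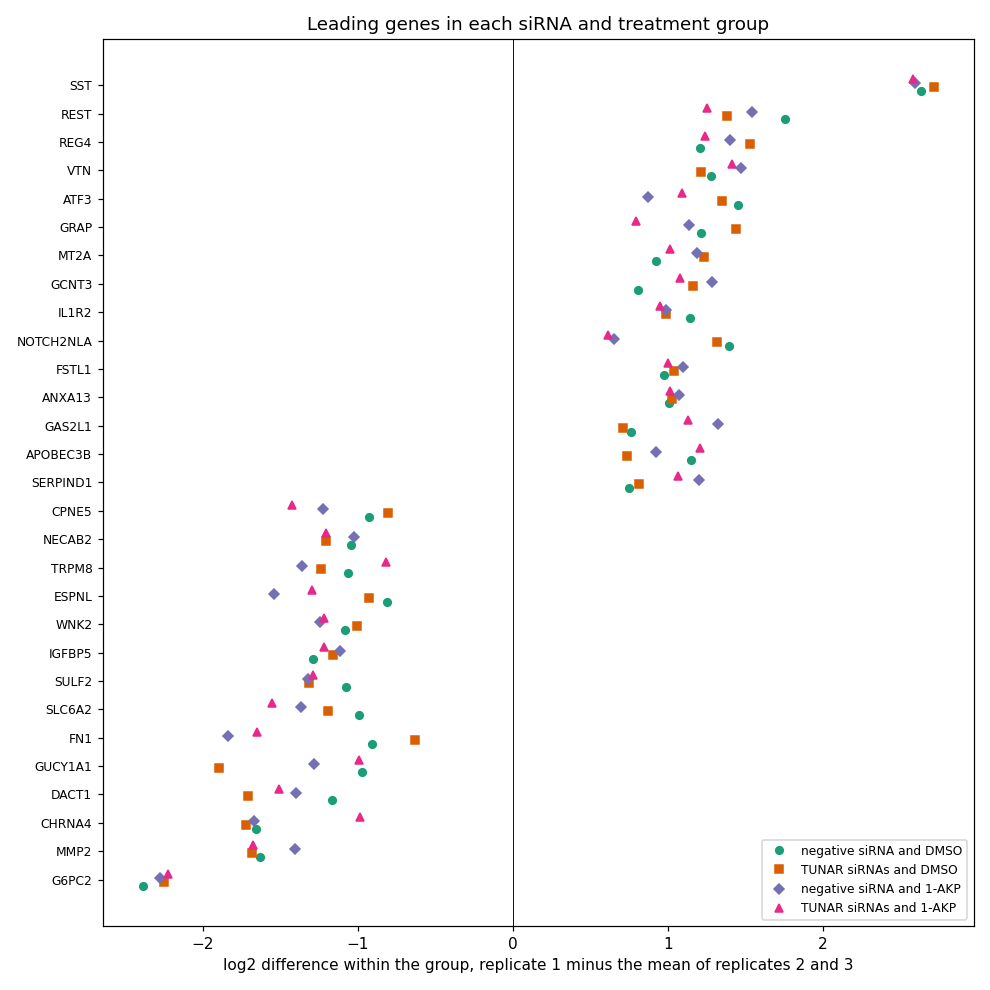
Log2 difference of replicate 1 from the mean of replicates 2 and 3 within each of the 4 siRNA and treatment groups (horizontal axis; colour and shape give the group) for the 29 leading genes with a descriptive name; each point rests on 1 library against 2. The 4 points of a gene lie on 1 side of 0 for all 29, as the rule for choosing them requires, and FN1 is farther from 0 in 1-AKP (-1.84 and -1.65) than in DMSO (-0.91 and -0.63).

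Heat shock genes, mostly chaperones, were lower. Of 12 heat shock genes, 9 were lower (75.0%) and none was called higher, with a median of -0.21; over all genes tested 20.2% were lower. HSPA8, the constitutive HSC70, was at 1379 to 1566 CPM in replicate 1 and 1788 to 2018 in the others (-0.36 ± 0.023, adjusted p = 1.2e-13). The HSP110 gene HSPH1 was at 195 to 215 against 261 to 294 CPM (-0.43), HSPD1, the mitochondrial chaperonin, differed by -0.26, and HSPA1B by -0.51, with a near-identical copy in HSPA1A that makes its own counts uncertain. Of 19 genes of the endoplasmic reticulum's unfolded protein response 8 were higher (42.1%, beside 18.2% of all genes tested) and 3 lower (15.8%). SEL1L, of the degradation machinery, differed by 0.37, ATF6 by 0.22, DNAJC3 by 0.18 and HSP90B1 by 0.12.

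Of 11 targets of NRF2, the factor that answers oxidative stress, 8 were higher (72.7%) and 1 lower (9.09%), beside 18.2% higher and 20.2% lower over all genes tested, with a median of 0.32. NQO1, a quinone reductase, was at 52.5 and 47.3 CPM in DMSO and 102 and 98.7 in 1-AKP in replicate 1, against 27.8 to 34.9 and 48.7 to 63.1 (0.74 ± 0.045, adjusted p = 5.2e-13; without the group block adjusted p = 0.103). OSGIN1 differed by 0.85, the cystine transporter SLC7A11 by 0.75 and the sulfiredoxin SRXN1 by 0.43. Of 21 genes of the amino acid and integrated stress response (median 0.06), which include SLC7A11, 10 were higher (47.6%) and 3 lower (14.3%). CHAC1, which degrades glutathione, differed by 0.91, PHGDH, the first enzyme of serine synthesis, by 0.52 and ATF5 by 0.38.

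Targets of FOXO and ChREBP were higher in 5 of 13 cases and lower in none, with CCNG2, an unconventional cyclin raised in resting cells, at 0.78, TXNIP, an inhibitor of thioredoxin, at 0.64, ARRDC4, its relative, at 0.61, and SESN3, a sestrin, at 0.36. The share called in either direction, 38.5%, equalled that of all genes tested, so the total called does not set the list apart. By direction, 38.5% were higher, beside 18.2% of all genes tested, and 0% lower, beside 20.2%. Cholesterol synthesis genes were higher in 12 of 22 cases (54.5%) and lower in 1 (4.55%), with a median of 0.09. INSIG1 differed by 0.26, STARD4 by 0.36 and IDI1 by 0.36. Fatty acid synthesis genes were split at 3 higher (27.3%) and 4 lower (36.4%) of 11. The malic enzyme ME1 differed by 0.64, ACSS2 by 0.26, SREBF1 by 0.15 and ACACA by -0.14. Hypoxia genes were higher in 4 of 12 cases and lower in 1, where VEGFA differed by -0.24, BNIP3L by 0.14, BNIP3 by 0.13 and ERO1A by 0.10, the last by 0.049 and not called without replicate 1 of 1-AKP with TUNAR siRNAs (adjusted p = 0.247). Of the hypoxia genes 41.7% were called, near the 38.5% of all genes tested.

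Signalling lists were mixed. Over all genes tested 18.2% were higher and 20.2% lower. Among TGF-beta and BMP targets 7 of 13 were higher (53.8%) and none lower, with a median of 0.26. The inhibitory SMAD7 differed by 0.71, SKIL by 0.26, GREM1 by 0.27 and ID4 by 0.20. Wnt targets and antagonists were higher in 2 of 9 cases (22.2%) and lower in 3 (33.3%). The feedback inhibitors NOTUM and NKD1 differed by -1.03 and -0.40 and the secreted DKK3 and SFRP1 by 0.42 and 0.22. In the Notch list 2 of 13 were higher and 1 lower, the ligand DLL1 at 0.72, NOTCH2 at 0.70 with the copies noted above, and DLK1 at -0.27, which lost its call in 6 of 29 alternative analyses, among them that without replicate 1 of negative siRNA with 1-AKP (-0.21, adjusted p = 0.0529). Interferon genes were higher in 5 of 12 cases, with IFIT1 at 0.55, IFI6 at 0.34 and IRF9 at 0.26, the last of which kept its call in 10 of 29 alternative analyses. Of the Notch list 23.1% were called and of the interferon list 41.7%, beside 38.5% of all genes tested. Clock genes were higher in 7 of 17 cases (41.2%) and lower in 4 (23.5%). RORA differed by 0.24, NFIL3 by 0.26, HLF by -0.38 and PER2 by -0.26.

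Over all genes tested 18.2% were higher and 20.2% lower. Matrix and adhesion genes were higher in 9 of 18 cases (50.0%) and lower in 4 (22.2%), FN1 among the latter. The laminin LAMB1 differed by -0.30, the integrin ITGA1 by 0.34, the collagen COL4A2 by 0.30 and the adhesion protein L1CAM by 0.38. Neuronal genes were higher in 4 of 15 cases (26.7%) and lower in 5 (33.3%). NEFM differed by 0.50, NCAM1 by 0.17, TUBB3 by -0.18 and ELAVL4 by -0.24. Lists of the basic machinery sat near 0. Their shares called in either direction were 37.0% for ribosomal proteins and 38.1% for oxidative phosphorylation, near the 38.5% of all genes tested. Cytosolic ribosomal protein genes were higher in 5 and lower in 5 of 27 (median -0.0033), between -0.14 for RPL8 and 0.18 for RPS12, with RPL11 at 0.12 and RPLP1 at 0.10. Nuclear oxidative phosphorylation genes were higher in 2 and lower in 6 of 21 (median -0.0038), with ATP5MC1 at -0.26, ATP5F1A at -0.15, SDHD at 0.22 and NDUFB9 at -0.11, which lost its call without replicate 1 of either group with DMSO (adjusted p = 0.0541 and 0.065). Of 6 histone genes tested in this polyadenylated RNA, 3 were higher (50.0%) and none lower. Among the higher ones were H2BC5 (0.63) and H2BC21 (0.30), both uncertain because of close family copies.

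**Figure D4:**
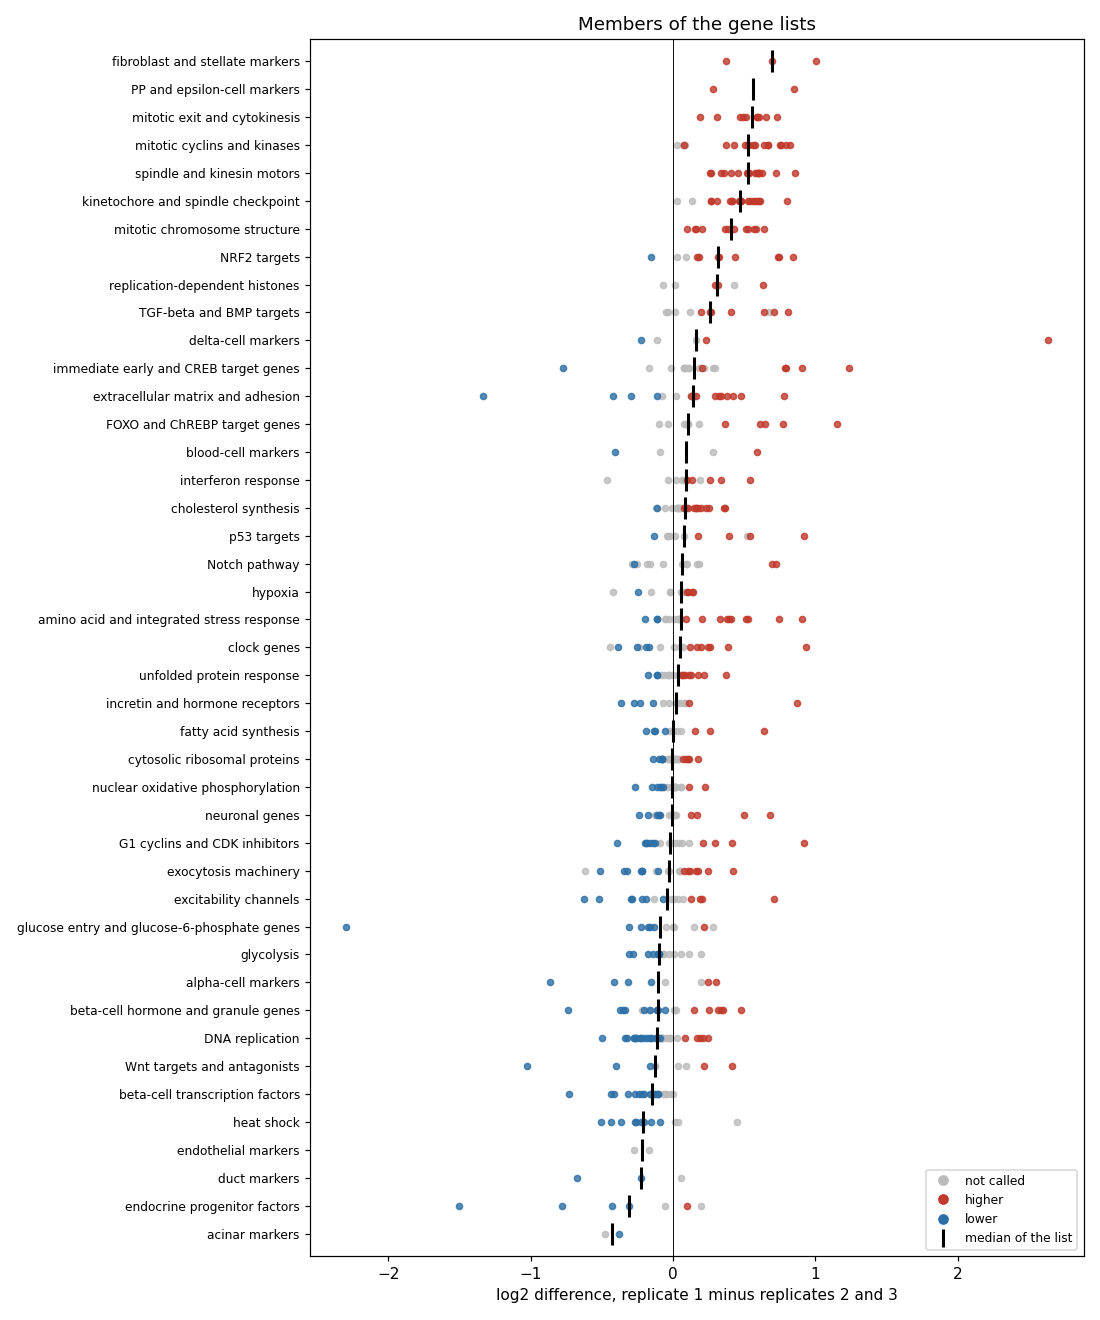
Log2 difference between replicate 1 and replicates 2 and 3 (horizontal axis) for each tested member of 43 gene lists (rows, ordered by median); each point is 1 gene, coloured by its call at an adjusted p of 0.05, and the bar is the list's median. The 5 mitotic lists have medians from 0.41 to 0.55, while DNA replication (-0.11), beta-cell transcription factors (-0.15) and heat shock genes (-0.21) lie on the other side of 0.

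Markers of other cell types gave these values, whose part in the results above was not tested. Alpha-cell markers summed to 2040 to 2131 CPM in replicate 1 and 1903 to 2111 in the others, mostly TTR, with GCG and IRX1 under 1 CPM throughout; of 8 tested, 2 were higher (DPP4 0.31, TTR 0.25) and 4 lower, including CRYBA2 at -0.86 and IRX2 at -0.32. Markers of fibroblasts and stellate cells summed to 11.4 to 12.5 CPM against 6.60 to 9.47, which do not overlap, and all 3 tested were higher: COL1A1 (0.70), COL3A1 (1.01) and RGS5 (0.37). COL1A2, PDGFRB, PDGFRA, DCN, ACTA2 and THY1 were under 1 CPM in every library. COL3A1 rests on few counts, at 0.379 to 1.16 CPM in replicate 1 and 0.127 to 0.698 in the others. It lost its call in 8 of 23 alternative analyses. These include the edgeR fits without replicate 1 or 2 of either group with TUNAR siRNAs (0.76 to 0.92, adjusted p = 0.0507 to 0.204). RGS5 lost its call in 8 of 29, among them limma on log2 FPKM (0.077 to 0.12, adjusted p = 0.480 to 0.495).

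Acinar markers summed to 21.5 to 24.5 CPM against 24.9 to 34.2, with CPA1, a pancreatic carboxypeptidase, lower (-0.38) of 2 tested and CEL, AMY2A, CTRB1 and PTF1A under 1 CPM. Duct markers summed to 51.2 to 57.6 against 55.0 to 69.8 CPM, with the keratins KRT19 (-0.22) and KRT7 (-0.68) lower of 3 tested and CFTR, SPP1 and AQP1 under 1 CPM. KRT7 lost its call in 6 of 28 alternative analyses, with DESeq2 (adjusted p = 0.112) among them, and differed by -0.38 without replicate 1 of negative siRNA with DMSO (0.259). Endothelial markers summed to 6.58 to 7.59 against 7.62 to 9.12 CPM, with neither of 2 tested called and VWF, CDH5, KDR and ENG under 1 CPM. Blood-cell markers summed to 56.5 to 70.0 against 40.5 to 61.5 CPM, with CD68 higher (0.59) and CD14 lower (-0.41) of 4 tested and MS4A1 under 1 CPM. CD14 lost its call in 12 of 28 alternative analyses, among them DESeq2 (adjusted p = 0.116) and the fits without replicate 1 or 3 of negative siRNA with DMSO, replicate 1 of TUNAR siRNAs with DMSO, replicate 1 of negative siRNA with 1-AKP or replicate 2 of 1-AKP with TUNAR siRNAs (0.0542 to 0.0908). PP and epsilon-cell markers summed to 128 to 155 against 104 to 123 CPM, with ACSL1 (0.28) and SERTM1 (0.85), both tested, higher, and GHRL and PYY under 1 CPM. This sum was mostly ACSL1, at 123 to 150 CPM against 102 to 119. PPY, also of this list, was listed in no library.

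The passage in the labels separates replicate 3 from the other 2 numbers, so the numbers were also compared in pairs in a fit with each as its own level. Replicate 1 against replicate 2, both at passage 74, gave 5308 genes (33.2%), 2492 higher and 2816 lower. Replicate 1 against replicate 3 gave 6253 (39.1%), 3051 and 3202. Replicate 2 against replicate 3, across the passages, gave 453 (2.83%), 294 and 159. The first 2 counts share the replicate 1 libraries and are given side by side only. The third count was 686 without replicate 1 of 1-AKP with TUNAR siRNAs, and fell to 179 without replicate 2 and 219 without replicate 3 of TUNAR siRNAs with DMSO, to 231 without replicate 3 of negative siRNA with DMSO, to 243 without replicate 2 of negative siRNA with 1-AKP and to 230 without replicate 3 of 1-AKP with TUNAR siRNAs. Under DESeq2 the pair of replicates 1 and 2 gave 3373 genes and the pair of replicates 2 and 3 gave 204.

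By role, the 81 mitotic genes had a median of 0.57 against replicate 2 and 0.47 against replicate 3, with 80 and 73 called higher and none lower; in replicate 2 minus replicate 3 the median was -0.09, with 20 called lower and none higher. DNA replication genes had medians of -0.04 and -0.17 against replicates 2 and 3, with 12 and 24 of 34 called lower, and of -0.09 between replicates 2 and 3, with 11 lower. SST differed by 2.87 from replicate 2 and 2.44 from replicate 3 (-0.44 for replicate 2 minus 3, adjusted p = 0.0302), and REST by 1.56 and 1.53 (-0.03, adjusted p = 0.968). MMP2 differed by -1.60 and -1.67 and IGFBP5 by -1.23 and -1.17. VTN differed by 0.97 and 1.72 and by 0.74 between replicates 2 and 3 (adjusted p = 8.6e-10).

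Whether the shift of replicate 1 differed with the treatment or the siRNA was tested by an interaction in the same counts. Between 1-AKP and DMSO no gene passed (0%), in edgeR or in DESeq2, the smallest adjusted p in edgeR was 0.344, and 788 genes had an unadjusted p under 0.05. With each number as its own level 17 genes passed, and 0 to 5 with 1 library left out. For SST the shift in 1-AKP minus that in DMSO was -0.08 ± 0.20, for CCNB1 -0.03 ± 0.071, for INS -0.05 ± 0.073 and for G6PC2 0.11 ± 0.64, the last with a wide error. Between TUNAR and negative siRNAs 1 gene of 15990 passed (0.00625%), SERF2, and 0 to 9 with 1 library left out. Within the 4 groups the median difference of the 81 mitotic genes was 0.51, 0.51, 0.49 and 0.53.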

How the data were processed

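HiSeq libraries of polyadenylated RNA were read, per the labels, which state no strand marking. The deposited expected count of each gene and library is an estimated read count, per the file headers, not normalised. The authors also deposited FPKM, counts scaled by gene length and library total, and a length for each gene, in bases. RSEM, BWA, Bowtie and 2 names of one build, hg19 and GRCh37, appear per the submitters' processing notes. Genes are keyed by Entrez ID (21386 of 21508 identifiers matched a symbol), with 0 for a gene that a library's file omits. Expected counts were rounded, since 35.3% to 36.0% of the values above 0 in a library held decimals. Genes were kept by filterByExpr (minimum count 10, minimum total 15), which left 15990 holding 99.9% of the counts, and scaled by TMM (factors 0.990 to 1.014).

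The test was edgeR 4.0.16's quasi-likelihood test (R 4.3.3, glmQLFit, robust) with 4 group means and an indicator of replicate 1 (7 residual degrees of freedom), with Benjamini-Hochberg adjustment over all genes tested and a threshold of 0.05. Pairs of numbers and interactions were contrasts in fits of the same 12 libraries. The SE is the log2 difference over the square root of F. CPM are TMM-scaled, and log2 CPM used a prior count of 2. Chi-square per degree of freedom within groups ran from 2.35 to 11.7, so no library was a copy. Alternatives used DESeq2 1.42.0 and limma 3.58.1 on log2 FPKM (pseudocounts 0.1 and 1). The scripts were tested on simulated data.

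Members and the 43 gene lists were chosen with earlier results of these data known. Genes named are SST, G6PC2 and CCNB1, the 15 largest called differences in each direction whose log2 CPM averaged 1 or more with replicate 1 outermost in all 4 groups, up to 4 called members per list with the lowest p, and interaction calls. Other genes named were chosen after their values were seen, or are list members at low levels or not called. Some list members and their values are not reported here. Genes of the lists that were not listed in any library were not analysed here.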

Additional observations from a re-analysis of the deposited data

Results flagged for a closer look

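SERF2, a small protein gene, was the 1 gene for which the shift of replicate 1 differed between siRNAs: it was -0.36 ± 0.059 on the log2 scale (edgeR, interaction of the replicate number with the siRNAs, adjusted p = 0.0216). With TUNAR siRNAs replicate 1 stood at 128 CPM against 158 and 159 in DMSO and at 121 against 164 and 164 in 1-AKP, while with negative siRNA it stood at 150 against 144 and 152 and at 169 against 181 and 167. Replicate 1 was thus apart in both groups with TUNAR siRNAs and within or next to the range of the others in both groups with negative siRNA. The count of genes called was 0 without replicate 1 or 2 of negative siRNA with DMSO, without replicate 3 of negative siRNA with 1-AKP and without replicate 2 or 3 of TUNAR siRNAs with 1-AKP, and 9 without replicate 1 of TUNAR siRNAs with DMSO. Without replicate 1 of negative siRNA with 1-AKP 1 gene was called, in the direction opposite to that of SERF2. No cause was tested.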

How the results depend on the processing

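The count of 6153 genes stayed within 1.5 times under DESeq2 (4689), other scalings, filters and limma on log2 FPKM. It was 3451 without the group block, 3859 in DMSO alone, 3897 in 1-AKP alone and 3927 with negative siRNA alone, where fewer libraries or a wider spread entered, and 5074 to 6174 with 1 library left out. No named gene changed direction. Of 182 named genes DESeq2 ended the call of 6, the fit without the group block of 40, and passage 74 alone of 11. Leaving out 1 library gave 4422 to 5324 genes for replicate 1 against 2, 5387 to 6359 for 1 against 3 and 179 to 686 for 2 against 3. DESeq2 gave 3373 and 204 for the first and the last.

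The replicate numbers were checked for pairing: deviations from group means correlated over genes at 0.336 to 0.427 between replicate 1 libraries, 0.0557 to 0.178 between those of replicate 2 and 0.159 to 0.286 for replicate 3. Libraries of replicate 1 thus deviated with one another, and so did those of replicate 3, while some pairs of replicate 2 fell under 0.1. Between numbers, pairs of replicates 1 and 3 correlated at -0.324 to -0.202. Pairs of replicates 2 and 3 had a median of 0.089, beside 0.0752 within replicate 2. The labels do not say that a number marks a shared batch, so the block is given as an alternative. With a replicate block, each number its own level, 6630 genes were called, and the interactions gave 17 genes for 1-AKP and 9 for TUNAR siRNAs. Without the filter these gave 1 and 6, with DESeq2 the second gave 4, and with 1 library left out 0 to 5 and 0 to 9. The cause of these moves was not tested. At this depth genes under 1 CPM had a median SE of 0.299, against 0.029 at 100 CPM or more.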
